A study of Mus musculus with 12 samples.

Results

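Pdcd5 and the genes of the chaperonin CCT were followed in C22 cells, a mouse club cell line. The 10 genes were chosen by name, with earlier results of these data known. They were Pdcd5 itself, the 8 genes for the CCT subunits (Tcp1, Cct2, Cct3, Cct4, Cct5, Cct6a, Cct7 and Cct8) and Pdcl3, a phosducin-like partner of CCT. All 10 of them were among the 12425 genes that passed the filter on low counts, out of 23282 gene rows in the files.

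RNA was read in 12 libraries, 3 for each of 4 groups, from cells transfected with a negative control (NC) or with siRNA against Pdcd5 (siPdcd5), and then either left without TGF-β1 or, for the groups NC + TGF-β1 and siPdcd5 + TGF-β1, kept for 24 h with TGF-β1 at 20 ng/ml. All 4 groups share the C22 background, a line cloned from mice that carry the H-2Kb-tsA58 transgene, and all cells were differentiated and held in medium without serum for a short time before treatment. C22 is 1 cloned line, and the sources do not say whether libraries of a group came from separate cultures, so that the p-values measure the spread between these libraries, which may be technical. The libraries held 12809857 to 17714828 counts, and 3 counts in a library were worth 0.165 to 0.239 CPM, the count per 1e6 counts after scaling. Of 8 club cell markers, 7 had at most 10 counts in every library, among them the secretoglobins Scgb1a1 and Scgb3a2 and the cytochrome Cyp2f2. The eighth, the retinal dehydrogenase Aldh1a1, ranged from 155 to 556 CPM. Of 5 epithelial markers, the adhesion gene Epcam had 1 count in 12 libraries and the keratin gene Krt19 at most 4 counts in a library. Cdh1 ranged from 1.91 to 4.03 CPM, whereas the keratin genes Krt8 and Krt18 ranged from 171 to 524 and from 373 to 1199 CPM. Of 6 fibroblast markers, 0 stayed at 10 counts or fewer, and their sum was 4208 to 7877 CPM. They ran from Pdgfra, with 3.39 to 5.93 CPM, to Col1a1, with 1695 to 6542 CPM. Of the 4 leukocyte and the 3 endothelial markers, 3 and 2 stayed at 10 counts or fewer in every library.

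CCT, also called TRiC, is a chaperonin of the cytosol, a barrel of stacked rings in which 8 related subunits hold fixed places. It folds actin, tubulin and a set of WD-repeat proteins with the use of ATP, and prefoldin hands it unfolded chains. PDCD5, a small protein known from work on cell death, and phosducin-like proteins such as PDCL3 bind the chaperonin and are described as partners of its work on particular clients. The libraries measure RNA and not the chaperonin, its assembly or its activity.

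On knockdown, Pdcd5 RNA fell by 69.1% without TGF-β1 and fell by 64.5% with it, whereas 0 of the 8 CCT subunit genes were called in either case, beside 3.44% and 1.55% of all genes tested. TGF-β1 left Pdcd5 RNA without a detected change in both backgrounds. In knockdown cells 3 of the 8 subunit genes, Tcp1, Cct3 and Cct6a, were called higher after TGF-β1, by 24% to 37%, where 8.50% of all genes tested were called higher. The call of Tcp1 was lost in 8 of 16 alternatives, and its reads cannot be told apart from those of the overlapping gene Acat3. The same genes did not pass the test in NC cells, and the difference between the backgrounds did not pass it either.

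Pdcd5, on chromosome 7 of GRCm38 at 35641982 to 35647521 (minus strand), is the gene that the siRNA targets, so its level checks the labels. Its 3 NC libraries had 73.5, 65.8 and 65.1 CPM, and its 3 siPdcd5 libraries had 21.2, 20.0 and 22.1 CPM. After TGF-β1 it had 66.3, 69.7 and 67.5 CPM in NC cells and 24.1, 21.8 and 26.3 CPM in knockdown cells. Every knockdown library thus lay below every NC library, and within a background the treated and untreated libraries overlapped. The log2 fold change on knockdown was −1.69 (95% confidence interval −1.91 to −1.48, adjusted p = 1.1e-06) without TGF-β1 and −1.49 (−1.70 to −1.28, adjusted p = 5.5e-06) with it, by the quasi-likelihood test of edgeR, with p adjusted by Benjamini-Hochberg over all genes tested. This was the smallest p of the 12425 genes in both knockdown comparisons. The knockdown effects with and without TGF-β1 differed by 0.20 on the log2 scale (95% confidence interval −0.10 to 0.50, adjusted p = 0.960, same test in edgeR). Pdcd5 was called lower in all 16 alternative analyses of each comparison. In bulk RNA, fewer cells with the gene and less RNA of it per cell cannot be told apart.

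Pdcd5 RNA did not respond to TGF-β1 by the test. Its log2 fold change was −0.0062 (95% confidence interval −0.21 to 0.20, adjusted p = 0.979) in NC cells and 0.19 (−0.02 to 0.41, adjusted p = 0.220) in knockdown cells, from the same edgeR model. In NC cells the interval reaches from a fall of 13.5% to a rise of 14.7%. Of the 426 stretches of 75 bases, the read length, in the last 500 bases of the Pdcd5 transcript, 64.1% also occur in the processed pseudogene Pdcd5-ps. The pseudogene has no row of its own, and alignments at multiple places were counted, so how many of the counts left in knockdown cells came from it was not tested.

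**Figure D1:**
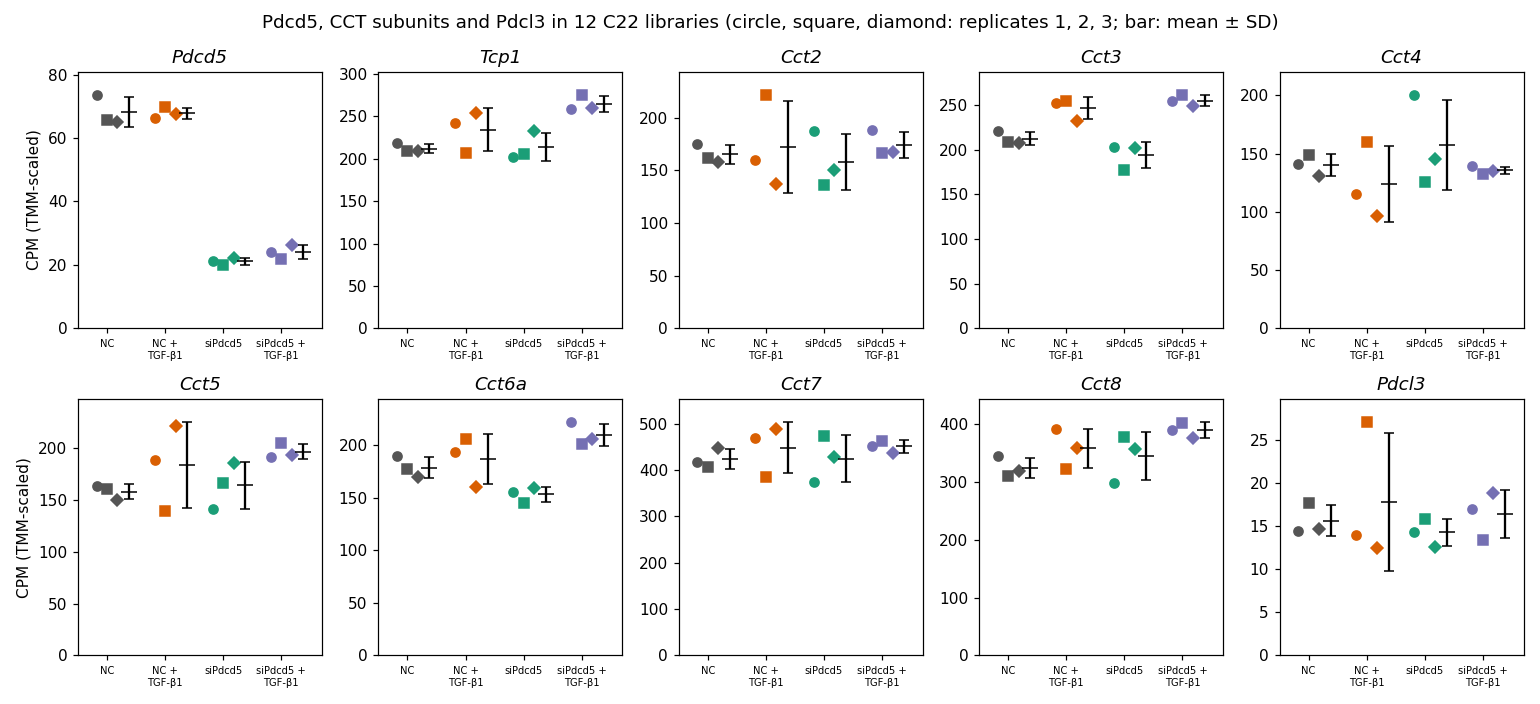
CPM, scaled by TMM, of each of the 10 genes in the 12 libraries by group, with circle, square and diamond for replicates 1, 2 and 3 and a bar for the mean ± SD of 3 libraries. Pdcd5 lies between 20.0 and 26.3 CPM in the 6 knockdown libraries and between 65.1 and 73.5 CPM in the 6 NC libraries, while the other genes show no such gap.

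Without TGF-β1, 0 of the 8 CCT subunit genes were called in siPdcd5 against NC, where 3.44% of all genes tested were called at an adjusted p under 0.05. Their log2 fold changes ran from −0.22 for Cct6a to 0.16 for Cct4, with 5 above 0, 3 below it and a median of 0.0079, beside a median of 0.02 over all genes tested. Standard errors were 0.08 to 0.17. At an unadjusted p under 0.05 in edgeR stood 1 subunit, Cct6a, and 15.7% of all genes, and DESeq2 and limma called 0 of the 8. Groups did not overlap for 2 of the 8, Cct3 and Cct6a, both lower in the knockdown, and for 23.1% of all genes tested.

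Cct6a encodes the ζ subunit. It had 189, 177 and 169 CPM in NC and 155, 145 and 159 CPM in siPdcd5, so the siPdcd5 libraries were the lower ones without overlap. The log2 fold change was −0.22 (95% confidence interval −0.43 to −0.01, adjusted p = 0.292, edgeR). This value missed the threshold with all libraries. It passed when 1 surrogate variable was added to the edgeR model (−0.24, adjusted p = 0.029), where 1664 of 12425 genes were called. It was −0.24 too when the 3 libraries that stand apart, described further on, were left out.

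Cct3, the gene of the γ subunit, had 220, 208 and 208 CPM in NC and 203, 177 and 202 CPM in siPdcd5. Here too all siPdcd5 libraries were below all NC libraries, but the log2 fold change of −0.13 (95% confidence interval −0.31 to 0.05, adjusted p = 0.501, edgeR) was not called. For Tcp1 (the α subunit), Cct2 (β), Cct4 (δ), Cct5 (ε), Cct7 (η) and Cct8 (θ) the groups overlapped. Cct4 had the widest interval, −0.21 to 0.54, with 141, 149 and 131 CPM in NC and 200, 125 and 146 CPM in siPdcd5. Without siPdcd5 replicate 1 the log2 fold change of Cct4 was −0.05 in place of 0.16.

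With TGF-β1 present, again 0 of the 8 subunit genes were called in siPdcd5 + TGF-β1 against NC + TGF-β1, beside 1.55% of all genes. All 8 log2 fold changes were above 0, from 0.0096 for Cct7 to 0.17 for Tcp1, with a median of 0.11 beside −0.02 for all genes. None of the 8 had an unadjusted p under 0.05 in edgeR, DESeq2 and limma called 0 of the 8 too, and 13.8% of all genes were under that p in edgeR. Groups did not overlap for 1 of the 8, Tcp1, and for 18.9% of all genes. Over both backgrounds together, the average knockdown effect called 0 of 8 subunits and 7.70% of all genes, with subunit values from −0.04 for Cct3 to 0.15 for Cct4 and 0 subunits under an unadjusted p of 0.05 in edgeR. DESeq2 and limma also called 0 of 8 there. With 1 surrogate variable, Cct4 passed in that average (0.15, adjusted p = 0.046, edgeR), where 2658 of 12425 genes were called.

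Pdcl3, the phosducin-like partner, was a low gene with 170 to 362 counts in a library. It had 14.4, 17.7 and 14.7 CPM in NC, 14.4, 15.8 and 12.6 CPM in siPdcd5, 13.9, 27.1 and 12.4 CPM in NC + TGF-β1, and 17.0, 13.4 and 18.8 CPM in siPdcd5 + TGF-β1. The second NC + TGF-β1 library was above all others. On knockdown its log2 fold change was −0.13 (95% confidence interval −0.65 to 0.39) without and −0.11 (−0.63 to 0.40) with TGF-β1, so changes of this size in either direction were not detectable here. Without the 3 libraries that stand apart these values were −0.14 and 0.25, the latter with replicate 1 alone for NC + TGF-β1.

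**Figure D2:**
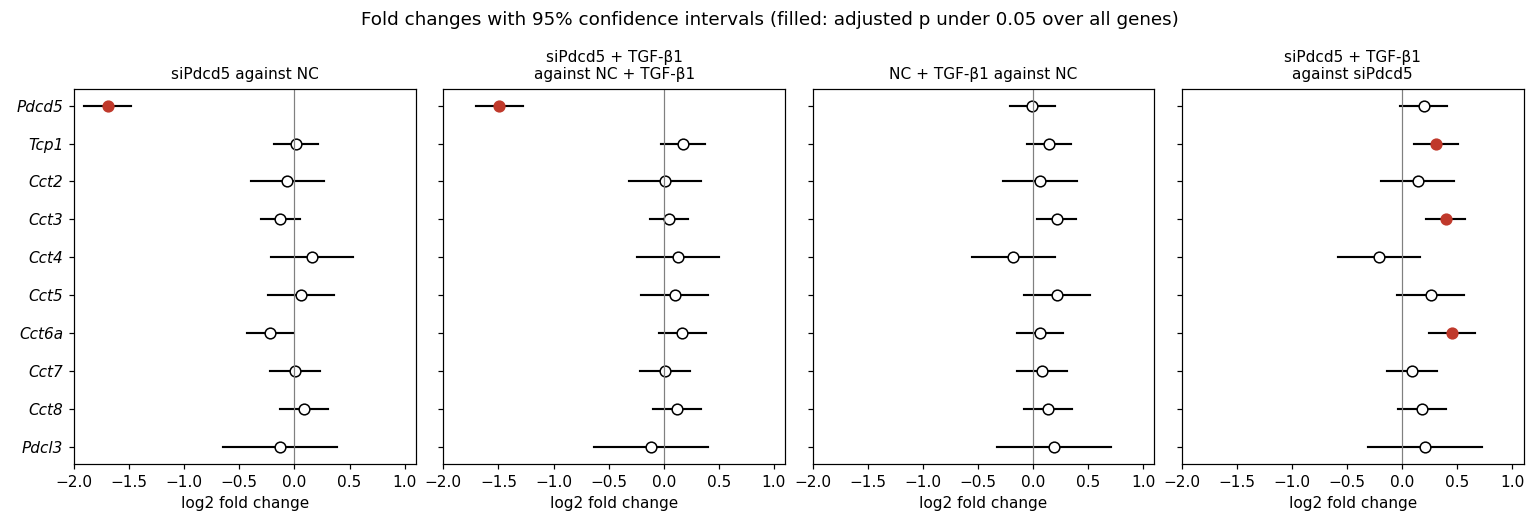
Log2 fold change (horizontal axis) with its 95% confidence interval for each of the 10 genes in 4 comparisons, filled where the adjusted p over all genes was under 0.05. Pdcd5 is filled in both knockdown comparisons, no CCT subunit is filled there, and Tcp1, Cct3 and Cct6a are filled for TGF-β1 in knockdown cells.

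The response of the CCT genes to TGF-β1 was next compared in both backgrounds. These comparisons share the NC and siPdcd5 libraries with those above. In NC cells 0 of the 8 subunits were called, beside 15.3% of all genes, and 1 of them (Cct3) was under an unadjusted p of 0.05, as were 27.1% of all genes. Log2 fold changes ran from −0.18 for Cct4 to 0.22 for Cct5, and 7 of 8 were above 0. Their median was 0.11, beside 0.0050 for all genes. Groups did not overlap for 1 of the 8, Cct3, and for 29.6% of all genes. DESeq2 called 1 subunit, Cct3 (log2 fold change 0.22, adjusted p = 0.044), beside 2213 of 12425 genes. In edgeR, Cct5 was called without NC + TGF-β1 replicate 2 (0.38, adjusted p = 0.020), where 2554 of 12623 genes were called. Cct3 was called with 1 surrogate variable (0.22, adjusted p = 0.012), where 3633 of 12425 genes were called. Without the 3 libraries that stand apart, Cct8 was at 0.26, but NC + TGF-β1 then had replicate 1 alone.

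In knockdown cells 3 of the 8 subunits were called and all 3 of them were higher, where 16.1% of all genes were called, 8.50% as higher. DESeq2 called 3 of the 8, beside 2369 of 12425 genes, and limma after quantile normalization 2, beside 1945. The subunit values ran from −0.21 for Cct4 to 0.45 for Cct6a, with a median of 0.22 beside −0.03 for all genes. Groups did not overlap for 4 of 8, namely Tcp1, Cct3, Cct5 and Cct6a, and for 36.1% of all genes. In the same libraries the summed CPM of 5 epithelial markers was 547 to 699 in siPdcd5 and 1582 to 1645 in siPdcd5 + TGF-β1, with 2 of 3 tested markers called higher. That of 6 fibroblast markers was 4208 to 4442 and 5725 to 6087, with 2 called higher and 2 lower. Single markers of other types were called too, the basal Krt14 higher (4.52) and the club cell Aldh1a1 (−0.93) and the alveolar Aqp5 (−0.55) lower on the log2 scale. Each was the only gene called of its list. The other basal markers, Trp63 and Krt5, had at most 3 counts in a library. The alveolar Pdpn (−0.05) and Ager (−0.27) were not called. On knockdown, Aldh1a1 was lower by log2 fold changes of −0.86 without and −0.57 with TGF-β1, and Krt14 by −1.60 and −1.18, all called. The part of these in the CCT result was not tested.

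Cct6a rose most. Its libraries had 155, 145 and 159 CPM in siPdcd5 and 221, 201 and 206 CPM in siPdcd5 + TGF-β1, and the log2 fold change was 0.45 (95% confidence interval 0.24 to 0.66, adjusted p = 0.0053, edgeR), a rise of 36.8%. All treated libraries were above all untreated ones. In NC cells the same gene went from 189, 177 and 169 CPM to 193, 206 and 160 CPM, with overlap, and its log2 fold change was 0.06 (−0.15 to 0.27).

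Cct3 had 203, 177 and 202 CPM in siPdcd5 and 255, 261 and 248 CPM in siPdcd5 + TGF-β1. Its log2 fold change was 0.39 (95% confidence interval 0.22 to 0.57, adjusted p = 0.0040, edgeR), again without overlap. In NC + TGF-β1 it had 252, 255 and 232 CPM, all above its 3 NC libraries, and the log2 fold change of 0.22 (0.04 to 0.39) missed the threshold (adjusted p = 0.098, edgeR). Cct3 and Cct6a were called in all 16 alternative analyses of TGF-β1 in knockdown cells, and Tcp1 in 8 of 16.

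Tcp1 had 203, 206 and 233 CPM in siPdcd5 and 258, 275 and 260 CPM in siPdcd5 + TGF-β1. The log2 fold change was 0.31 (95% confidence interval 0.11 to 0.51, adjusted p = 0.036, edgeR), and the groups did not overlap. The last 500 bases of its transcript overlap exons of Acat3, a gene of acetyl-CoA acetyltransferase on the opposite strand, and 44.8% of the 75-base stretches there occur in Acat3 and 42.0% in the related Acat2. The count of Acat3 was 0.808 to 0.847 times that of Tcp1 in all 12 libraries, and that of Acat2 was 0.850 to 1.04 times it. In knockdown cells Acat3 had a log2 fold change of 0.30 (adjusted p = 0.049) and Acat2 one of 0.32 (adjusted p = 0.13) after TGF-β1, by the same edgeR test. The use of strand in counting is not stated, so the rise of Tcp1 and that of Acat3 cannot be told apart. Tcp1 also missed the threshold when siPdcd5 replicate 1 (log2 fold change 0.28) or 2 (0.28), or siPdcd5 + TGF-β1 replicate 1 (0.32), 2 (0.28) or 3 (0.32), was left out.

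**Figure D3:**
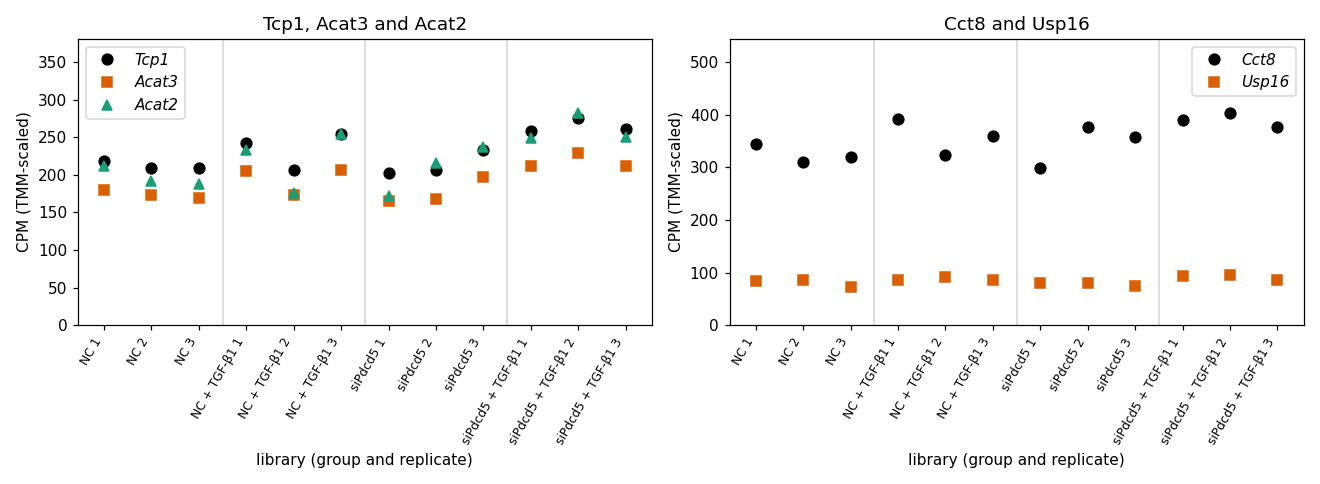
CPM, scaled by TMM, in the 12 libraries for Tcp1 with Acat3 and Acat2 (left) and for Cct8 with Usp16 (right), genes whose 3′ ends share sequence. Acat3 and Acat2 follow Tcp1 from library to library, while Usp16 stays at 0.208 to 0.282 times the count of Cct8.

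The other 5 subunits did not pass the test in knockdown cells. Cct5 had 141, 166 and 186 CPM in siPdcd5 and 191, 205 and 193 CPM in siPdcd5 + TGF-β1. These groups did not overlap, and its log2 fold change was 0.26 (95% confidence interval −0.04 to 0.56, adjusted p = 0.248, edgeR). Cct2 was at 188, 136 and 151 CPM in siPdcd5 and 189, 167 and 167 CPM in siPdcd5 + TGF-β1. Its log2 fold change of 0.14 was not called with all libraries (adjusted p = 0.601, edgeR). With 1 surrogate variable it was 0.29 (adjusted p = 0.0058, edgeR), where 3655 of 12425 genes were called. Without the 3 libraries that stand apart it was 0.29 too. Among those left out was siPdcd5 replicate 1, the siPdcd5 library with the most Cct2, so that choice by itself raises the value. The surrogate variable set the same library apart (−0.53), so these settings are not separate support. Cct7, with 374 to 474 CPM in siPdcd5 and 437 to 464 CPM after TGF-β1, and Cct8, with 298 to 377 CPM and 376 to 403 CPM, had values of 0.09 and 0.18. For Cct8, 27.7% of the 75-base stretches at the 3′ end occur in Usp16, which overlaps it on the other strand. Cct4 was the only subunit below 0 in the comparison, at −0.21 (−0.58 to 0.16), and reached 0.01 without the 3 libraries.

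The difference between the backgrounds was tested as an interaction, the TGF-β1 response in knockdown cells minus that in NC cells. edgeR called 0 of the 8 subunits and 0 of all 12425 genes (0%), and 5.13% of all genes had an unadjusted p under 0.05. Cct6a was the 1 subunit under that p, with a difference of 0.39 (95% confidence interval 0.09 to 0.69, unadjusted p = 0.014, adjusted p = 0.949, edgeR). Over the alternatives its adjusted p ranged from 0.062 to 1.00 and its value from 0.29 to 0.47. DESeq2 and limma called 0 of the 8 as well, and DESeq2 called 15 of all genes. For Tcp1 and Cct3 the differences were 0.16 (−0.12 to 0.44) and 0.18 (−0.07 to 0.43), so the calls in knockdown cells alone do not show that the backgrounds differ.

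Promoter windows are shown for Tcp1, Cct3 and Cct6a because these members were called higher after TGF-β1 in knockdown cells. That of Pdcd5, which was not called there, is shown beside them. Each window holds 250 bases before the RefSeq start site and 50 after it, on the strand of the gene in GRCm38.p6: Tcp1 at chr17:12916079-12916378 (plus), Cct3 at chr3:88296885-88297184 (plus), Cct6a at chr5:129787106-129787405 (plus) and Pdcd5 at chr7:35647433-35647732 (minus). Capitals mark matches, on either strand, to the CCAAT box (CCAAT or ATTGG), the GC box (GGGCGG or CCGCCC), an element bound by SMAD proteins (CAGACA or TGTCTG) and a heat shock element of a facing pair of units (GAANNTTC or TTCNNGAA).
Tcp1: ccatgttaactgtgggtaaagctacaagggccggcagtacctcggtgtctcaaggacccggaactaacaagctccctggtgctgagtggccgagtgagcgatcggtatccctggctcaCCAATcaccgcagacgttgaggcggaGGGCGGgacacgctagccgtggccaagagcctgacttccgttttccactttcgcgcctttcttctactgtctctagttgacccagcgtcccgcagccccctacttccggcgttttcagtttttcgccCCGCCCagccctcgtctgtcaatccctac
Cct3: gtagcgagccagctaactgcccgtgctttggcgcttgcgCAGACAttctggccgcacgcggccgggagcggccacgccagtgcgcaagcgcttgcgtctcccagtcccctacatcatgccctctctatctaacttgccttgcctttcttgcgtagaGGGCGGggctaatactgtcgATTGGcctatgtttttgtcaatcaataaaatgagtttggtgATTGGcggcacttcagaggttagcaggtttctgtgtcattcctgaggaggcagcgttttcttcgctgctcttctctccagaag
Cct6a: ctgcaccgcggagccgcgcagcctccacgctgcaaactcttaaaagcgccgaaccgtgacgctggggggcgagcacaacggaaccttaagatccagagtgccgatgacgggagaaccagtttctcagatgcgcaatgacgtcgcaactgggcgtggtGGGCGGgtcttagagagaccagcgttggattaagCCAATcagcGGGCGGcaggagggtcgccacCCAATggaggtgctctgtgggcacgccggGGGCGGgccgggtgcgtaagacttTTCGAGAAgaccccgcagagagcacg
Pdcd5: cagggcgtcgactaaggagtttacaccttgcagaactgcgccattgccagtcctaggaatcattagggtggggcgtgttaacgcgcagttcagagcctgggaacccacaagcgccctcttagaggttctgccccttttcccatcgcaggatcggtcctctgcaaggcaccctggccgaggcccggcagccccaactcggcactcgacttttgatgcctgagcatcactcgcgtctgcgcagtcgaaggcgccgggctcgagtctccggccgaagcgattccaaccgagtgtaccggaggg

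A CCAAT box was found in 1 copy in the Tcp1 window and in 2 copies each in those of Cct3 and Cct6a, and in 0 copies in that of Pdcd5, which held none of the motifs. RefSeq gave 10 windows for 8 of the 10 genes, and a CCAAT box was in 4 of them, the fourth being that of Cct7, which was not called. Of all 32851 windows of this length, 37.4% held one. The GC box was in 8 of the 10 windows and in 35.7% of all. Heat shock elements were in 3 of 10 windows (Cct6a and an alternative start each of Cct2 and Cct5) and in 15.1% of all, and SMAD elements in 2 of 10 (Cct3 and Cct8) and in 21.0% of all. The E-box CACGTG was in 0 of 10 and in 7.15% of all. A match is a string of letters and not a measured site.

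Libraries of 1 group also differed among themselves, and the CCT genes took part in this. The deviations of 9128 well-expressed genes from their group means had a first component with 59.9% of the within-group variance. The libraries farthest out on it were NC + TGF-β1 replicates 2 (score 0.64) and 3 (−0.42) and siPdcd5 replicate 1 (0.46). These are the 3 libraries that stand apart. Without them NC + TGF-β1 keeps replicate 1 alone, so values that use that group then rest on 1 library of it. Cct4 and Cct2 followed this component with Pearson r of 0.95 and 0.94 over the 12 libraries, and Pdcl3 with 0.79, Cct6a with 0.62 and Cct3 with 0.46. Cct5, Cct7, Tcp1 and Cct8 went the other way, with r of −0.94, −0.92, −0.86 and −0.82. Pdcd5 had an r of 0.25. The subunit genes were thus in opposed groups, as were genes at large. All subunits but Cct6a and Cct3 had an absolute r over 0.8, beside 36.7% of the 9128 genes. These correlations describe 12 libraries that also defined the component.

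**Figure D4:**
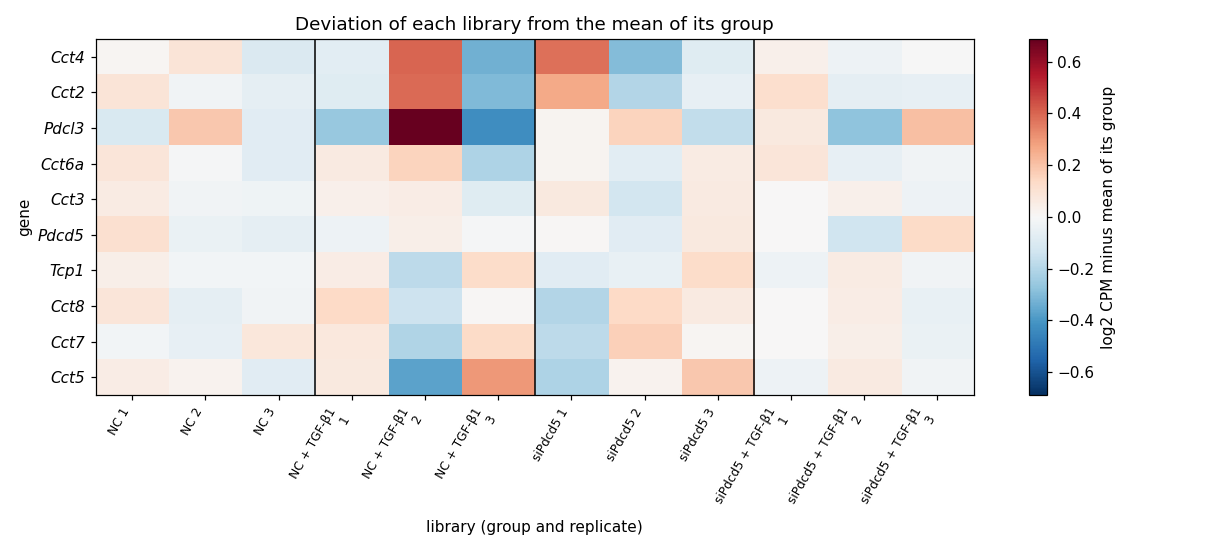
Log2 CPM of each of the 10 genes in each library minus the mean of its group (colour; red above, blue below), with lines between groups. The second NC + TGF-β1 and the first siPdcd5 libraries are red for Cct4 and Cct2 and blue for Cct5, Cct7, Cct8 and Tcp1, and the third NC + TGF-β1 library has the reverse pattern for Cct4, Cct2, Cct5, Cct7 and Tcp1.

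The CPM of single genes show this spread. Cct4 had 115, 160 and 96.6 CPM in NC + TGF-β1 against 139, 133 and 135 CPM in siPdcd5 + TGF-β1. Cct5 had 189, 139 and 221 CPM in NC + TGF-β1, low where Cct4 was high. The summed CPM of the 8 subunits hid these opposed moves, with 1897 to 2013 in NC + TGF-β1, 1783 to 1869 in NC, 1760 to 1861 in siPdcd5 and 2023 to 2107 in siPdcd5 + TGF-β1. Ribosomal Rn45s took 3.95% of the counts of NC + TGF-β1 replicate 2, 6.48% of replicate 3 and 5.12% of siPdcd5 replicate 1, and 4.75% to 6.49% in the others. Across 8803 genes the r with the component had a correlation of −0.23 with the GC content of the last 500 bases of the transcript and of 0.0084 with log2 transcript length. Whether the component is technical was not tested.

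Other genes of the pathway were taken from lists by function. Of the 6 prefoldin genes, which hand clients to CCT, 1 was higher in siPdcd5 + TGF-β1 against NC + TGF-β1 and 0 were lower, beside 1.55% of all genes called. This was Vbp1, with 27.0, 26.9 and 23.9 CPM in NC + TGF-β1 and 36.7, 36.7 and 33.2 CPM in siPdcd5 + TGF-β1 (log2 fold change 0.45, adjusted p = 0.036, edgeR). None of the 8 genes of the prefoldin-like URI complex and none of the 7 tubulin cofactors was called in either knockdown comparison by edgeR, and the same held for 20 other CCT clients, beside 3.44% of all genes without and 1.55% with TGF-β1. Their medians without TGF-β1 were 0.09, −0.02 and 0.02. At an unadjusted p under 0.05 in edgeR stood 0 of the URI genes, 0 of the cofactors and 2 of the clients in each comparison, beside 15.7% and 13.8% of all genes. The other tested phosducin-like gene, Pdcl, had 13.6 to 20.2 CPM and log2 fold changes of −0.17 and −0.09 on knockdown without and with TGF-β1. The testis subunit gene Cct6b had at most 8 counts in a library, and the phosducin-like Pdcl2 had 0 in all 12.

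Of 20 tested genes for cytosolic heat shock proteins and other chaperone factors, Hsf1 among them, 1 was lower in both knockdown comparisons and 0 were higher. This stood beside 3.44% and 1.55% of all genes called. The gene called was Hspb1, a small heat shock protein gene, with 112, 108 and 125 CPM in NC and 72.0, 68.7 and 76.4 CPM in siPdcd5 (log2 fold change −0.67, adjusted p = 0.0026, edgeR). With TGF-β1 it was 195, 154 and 202 CPM in NC cells and 135, 128 and 126 CPM in knockdown cells (−0.50, adjusted p = 0.029, edgeR). The average knockdown effect was called lower for 3 of the 20, Hspb1 (−0.58), Dnajb4 (−0.35) and Bag3 (−0.30), beside 7.70% of all genes called. After TGF-β1, 6 of the 20 were called higher and 0 lower in knockdown cells, beside 16.1% of all genes called. In NC cells 5 were called higher and 0 lower, beside 15.3%. Of the 5 mitochondrial chaperone genes, 3 were called higher and 1 lower after TGF-β1 in knockdown cells, beside 16.1% of all genes called. Hspd1, the mitochondrial relative of CCT, rose by 0.41 and its partner Hspe1 by 0.42 on the log2 scale. In NC cells their values were 0.14 and 0.11, not called. The differences between the backgrounds were not called either (adjusted p = 0.951 for each, edgeR). In NC cells 2 of the 5 were called higher, Hspa9 (0.41) and Lonp1 (0.42), beside 15.3% of all genes. Hspa9 was called higher in knockdown cells too (0.38). Of 10 tested tubulin genes, clients of CCT, the average knockdown effect was called higher for 4 (Tuba1b, Tuba4a, Tubb4b and Tubb5) and lower for 1, Tubb3 (−0.51), beside 7.70% of all genes. The single comparisons called 0 of the 10 without TGF-β1, and with it 0 higher and 1 lower, Tubb3 (−0.87).

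**Figure D5:**
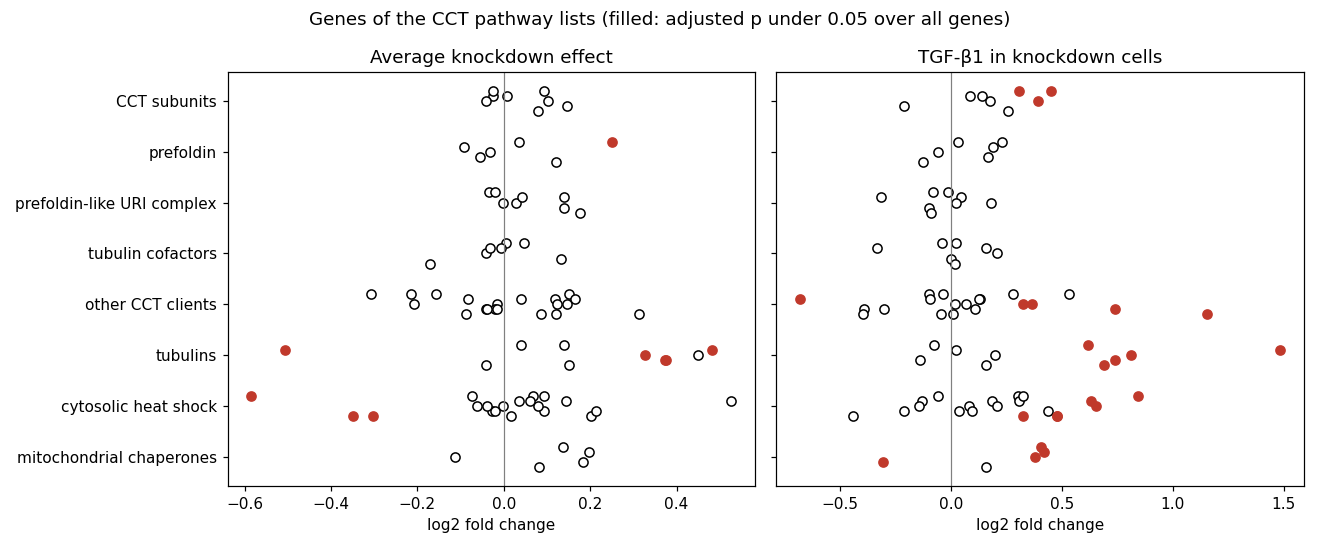
Log2 fold changes of single genes (points) in 8 lists of the CCT pathway, for the average knockdown effect (left) and for TGF-β1 in knockdown cells (right), filled where the adjusted p over all genes was under 0.05. The CCT row has no filled point on the left and 3 filled points on the right.

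The genes most like each pattern were sought among 9118 others by Pearson r of log2 CPM over the 12 libraries. For Pdcd5 these were Slit2 (r = 0.97), Sema3a (0.96), Mfsd6 (0.95), Macf1 (0.94) and Igsf3 (0.94), genes that shared its gap between NC and knockdown libraries. Within groups they did not follow it closely, with r of deviations from −0.17 to 0.33. For the mean of the 8 CCT subunits they were Trappc3 (0.96), Hspd1 (0.95), Txnl1 (0.94), Pgk1 (0.93) and Tfrc (0.93), and here the r of deviations within groups was 0.56 to 0.86. The points share libraries and scaling.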

How the data were processed

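RNA of 12 C22 libraries was read with the QuantSeq 3′ kit. The authors aligned single-end reads of 75 bases with Bowtie2 to mm10, counted unique and multiple alignments with Bedtools, and deposited whole counts per gene symbol. The annotation and the use of strand are not given in the sources used here. The quantile normalization in edgeR named in the methods is not in the deposited counts.

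From these counts, with R 4.3.3 and edgeR 4.0.16, genes were kept by filterByExpr (minimum count 10) and scaled by TMM. A quasi-likelihood model with the 4 groups was fitted to 12425 genes (common biological coefficient of variation 0.132), and a gene was called where its p, adjusted by Benjamini-Hochberg over all genes tested, was under 0.05. Confidence intervals come from the same fit. Of the rows, 44 repeat one of 35 symbols and were kept apart, and 5134 held no count. CPM use TMM-scaled library sizes, and log2 CPM a prior count of 2. Sequences and positions come from GENCODE vM21 (GRCm38) and RefSeq (GRCm38.p6). In that GENCODE version Cct6a is annotated as a processed transcript, so its 3′ end there is uncertain. No molecular identifiers were used, so count floors cover counting error only.

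The members, the gene lists and the tests were chosen with earlier results of these data known. Named were all members, and of each list the genes past the threshold in a knockdown comparison, at most 4 in each direction; further genes named were chosen after their values were seen. Alternatives were upper-quartile and total-count scaling, quantile normalization with limma 3.58.1, DESeq2 1.42.0, other filters, only the 6 libraries compared, the replicate number as a block and each library left out. Adding 1 surrogate variable (sva 3.50.0) and leaving out 3 libraries together were chosen after seeing the data.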

Additional observations from a re-analysis of the deposited data

How the results depend on the processing

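Pdcd5 was called lower in the knockdown under every alternative run, and the count of CCT subunits called stayed within 1.5 times its main value except as follows. For knockdown without TGF-β1 it was 1 (Cct6a) instead of 0 with 1 surrogate variable, where 1664 of 12425 genes were called. Cct6a also moved it without the 3 libraries that stand apart, a fit with replicate 1 alone for NC + TGF-β1. For TGF-β1 in NC cells it was 1 with DESeq2 and 1 with 1 surrogate variable (Cct3 in both), where 2213 and 3633 of 12425 genes were called. It ranged from 0 to 1 when each library was left out. Leaving out the 3 libraries moved it too (Cct8, 0.26), but NC + TGF-β1 then had replicate 1 alone. For the average knockdown effect it was 1 (Cct4) with 1 surrogate variable, where 2658 of 12425 genes were called. The cause was not tested. Among the subunits called for TGF-β1 in knockdown cells, Tcp1 missed the threshold in 8 of 16 alternatives, with an adjusted p up to 0.13 (edgeR, without siPdcd5 + TGF-β1 replicate 2).

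With the replicate number as a block, Cct3 (0.39) and Cct6a (0.45) were still called for TGF-β1 in knockdown cells and Tcp1 was not (0.31, adjusted p = 0.052, edgeR). Deviations of same-numbered libraries from their group means had mean correlations of −0.14 to 0.11 over the 4 comparisons, and not every pair was over 0.1, so the numbers were not taken to pair the libraries. Over all genes the number called moved most with 1 surrogate variable, from 427 to 1664 for knockdown without TGF-β1, 192 to 1233 with it, 1906 to 3633 for TGF-β1 in NC cells, 2002 to 3655 in knockdown cells, 0 to 37 for the interaction and 957 to 2658 for the average knockdown effect. The lowest numbers were 167, 44, 1391, 1371, 0 and 608 in that order. Pdcl3 had 170 to 362 counts a library and a biological coefficient of variation of 20.1%.

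Values of single genes changed sign in 82 of 1060 cases, none of them called either way. Not all of these were close to 0 with all libraries. Cct4 was at −0.21 for TGF-β1 in knockdown cells and Pdcl3 at 0.19 for TGF-β1 in NC cells. The following log2 fold changes are ranges over leaving out each library in turn. For knockdown without TGF-β1 these were Tcp1 (−0.054 to 0.045), Cct2 (−0.21 to 0.033), Cct4 (−0.055 to 0.30), Cct5 (−0.040 to 0.15) and Cct7 (−0.082 to 0.085). For knockdown with TGF-β1 these were Cct2 (−0.13 to 0.23), Cct4 (−0.027 to 0.36), Cct5 (−0.064 to 0.26), Cct7 (−0.087 to 0.074) and Pdcl3 (−0.32 to 0.32). For TGF-β1 in NC cells these were Pdcd5 (−0.046 to 0.051), Cct2 (−0.16 to 0.21), Cct6a (−0.018 to 0.17) and Pdcl3 (−0.25 to 0.40). For TGF-β1 in knockdown cells these were Cct4 (−0.35 to 0.0090). For the interaction these were Cct2 (−0.073 to 0.30), Cct4 (−0.19 to 0.20), Cct5 (−0.12 to 0.20), Cct7 (−0.091 to 0.092), Cct8 (−0.042 to 0.11) and Pdcl3 (−0.20 to 0.45). For the average knockdown effect these were Cct2 (−0.10 to 0.084), Cct5 (−0.0026 to 0.16), Cct6a (−0.077 to 0.013), Cct7 (−0.042 to 0.053) and Pdcl3 (−0.23 to 0.10). Other settings gave further values of opposite sign. Those without the 3 libraries have replicate 1 alone for NC + TGF-β1. Without a filter they were Tcp1 −0.0011 and Cct7 −0.0075 for knockdown without TGF-β1. Without the 3 libraries that stand apart they were Cct4 −0.056 for knockdown without TGF-β1, Cct7 −0.047 and Pdcl3 0.25 for knockdown with TGF-β1, Cct2 −0.059 and Pdcl3 −0.17 for TGF-β1 in NC cells, Cct4 0.010 for TGF-β1 in knockdown cells, Cct4 0.30, Cct5 −0.085, Cct7 −0.13 and Cct8 −0.17 for the interaction and Pdcl3 0.057 for the average knockdown effect. With DESeq2 they were Cct7 −0.0062 for knockdown without TGF-β1. With 1 surrogate variable they were Cct7 −0.019 and Pdcl3 0.038 for knockdown with TGF-β1 and Cct4 0.16, Cct5 −0.037, Cct7 −0.053 and Cct8 −0.016 for the interaction. With quantile normalization they were Cct2 −0.019 and Cct7 −0.032 for TGF-β1 in NC cells and Cct2 0.011 and Cct6a 0.0083 for the average knockdown effect. With total counts they were Cct6a −0.0035 for TGF-β1 in NC cells and Cct2 0.014, Cct3 0.0016 and Cct6a 0.015 for the average knockdown effect.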
